A study of Homo sapiens with 4 samples.

Results

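The autophagy machinery and receptor genes are 44 protein-coding genes, from the ULK1 kinase complex to the cargo receptors, out of 20037 protein-coding genes of the reference. They were chosen by name, and a FOXK2 peak belonged to one of them when the deposited annotation gave that gene as the nearest one. The peaks come from ChIP-seq of OVCAR5 cells, a high grade serous ovarian cancer (OC) line that the labels trace to ascites, with an antibody against FOXK2. The labels name no knockdown and no treatment for these libraries, so the experiment holds a single condition with 2 biological replicates, and their input libraries were not analysed here. The authors called peaks separately in each replicate, which gave 12471 peaks of 210 bp in replicate 1 and 27281 peaks of 256 bp in replicate 2 on hg38. The lists hold binding only, so neither the identity of the line nor the expression of any gene could be checked against them.

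Autophagy encloses cytoplasm in a growing double membrane, the phagophore, and delivers it to the lysosome. The ULK1 kinase complex starts the process, the class III PI3-kinase complex marks the membrane with PI3P, WIPI proteins read that lipid, ATG2 and ATG9 supply membrane, and a ubiquitin-like conjugation system attaches ATG8 proteins (LC3 and GABARAP) to it, which cargo receptors such as SQSTM1 bind. FOXK2 is a forkhead transcription factor, and FOXK1 and FOXK2 are known in other cells as nuclear repressors of autophagy genes when nutrients are plentiful, a role tied to mTOR signalling and to the Sin3A corepressor. Forkhead domains typically recognise the heptamer TGTTTAC.

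The 4 intervals below are shown because they carry the strongest peak of the genes (WIPI1), the strongest peak with the forkhead heptamer (SQSTM1), and, at ATG2A and ULK1, the best peaks that held the variant TGTTGAC. Each is the stretch common to the peaks of both replicates, on the + strand of hg38. Capitals mark the heptamer and its variant, the E-box CACGTG, and the site typical of the AP-1 factors, which is spelled TGANTCA. All were searched on both strands.
WIPI1 chr17:68457736-68457946 (+): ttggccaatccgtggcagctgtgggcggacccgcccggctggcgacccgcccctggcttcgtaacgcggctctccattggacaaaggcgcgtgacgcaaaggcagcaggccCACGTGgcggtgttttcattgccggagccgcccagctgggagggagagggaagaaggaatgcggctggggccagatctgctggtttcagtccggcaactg
SQSTM1 chr5:179819092-179819302 (+): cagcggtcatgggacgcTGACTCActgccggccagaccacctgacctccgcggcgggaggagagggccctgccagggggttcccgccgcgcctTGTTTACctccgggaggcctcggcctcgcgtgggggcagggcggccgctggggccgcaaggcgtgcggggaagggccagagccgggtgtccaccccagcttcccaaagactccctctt
ATG2A chr11:64916309-64916519 (+): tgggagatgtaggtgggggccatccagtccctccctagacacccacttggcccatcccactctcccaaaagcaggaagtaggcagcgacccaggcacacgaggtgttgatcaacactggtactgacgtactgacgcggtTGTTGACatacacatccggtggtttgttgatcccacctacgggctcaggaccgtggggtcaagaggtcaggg
ULK1 chr12:131896052-131896262 (+): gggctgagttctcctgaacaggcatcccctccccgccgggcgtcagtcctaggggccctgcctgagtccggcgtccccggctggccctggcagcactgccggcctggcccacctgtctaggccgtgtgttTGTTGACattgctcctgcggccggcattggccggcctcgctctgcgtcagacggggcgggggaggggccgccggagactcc
The WIPI1 interval held 1 CACGTG near its centre and neither heptamer. The SQSTM1 interval held TGTTTAC 9 bp from the replicate 1 centre, and a TGANTCA site nearer its edge. In ATG2A and ULK1 the marked letters were TGTTGAC, at 37 and 28 bp from the replicate 1 centre.

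Further matches in intervals common to both replicates are shown with 10 bases on each side, on the strand that spells the motif, again in capitals. They come from 5 genes, in shared peaks outside the promoter class. The match in RB1CC1 is counted with the others further on, but its sequence is not printed.
TAX1BP1 chr7:27723250-27723276 (+): tggaagctgtTGTTTACtgtatggtgg
NBR1 chr17:43172214-43172240 (+): atagctttggTGTTTACacacgtttaa
MAP1LC3A chr20:34580408-34580434 (+): cccacaccacTGTTTACcttcactcag
ATG12 chr5:115858152-115858178 (+): ttcatttcttTGTTTACtatcctgcca
ATG10 chr5:82107411-82107437 (+): gctgaattgaTGTTTACttctttgtgg
ATG10 chr5:82107494-82107520 (+): acaatattttTGTTTACcttaaagctt
MAP1LC3A chr20:34570975-34571001 (-): tactcatgtgTGTTGACatgggaaaca

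A FOXK2 peak was assigned to 29 of the 44 genes in replicate 1 (65.9%), against 31.3% of all protein-coding genes. In replicate 2, 38 of 44 had one (86.4%), against 51.7%. Every gene with a peak in replicate 1 also had one in replicate 2, so 29 genes had a peak in both replicates (65.9%, background 28.6%). In 27 of them a peak of replicate 1 overlapped a peak of replicate 2 by at least 1 bp (61.4%, background 25.5%), called a shared peak here. A peak of the annotation class promoter-TSS in both replicates was found at 18 genes (40.9%, background 9.31%). These shares describe a list chosen with earlier results of these data known, and no test was made of them. The median gene length was 36190.5 bp against 24115 bp for protein-coding genes, and the part of gene length in the counts was not tested.

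**Figure D1:**
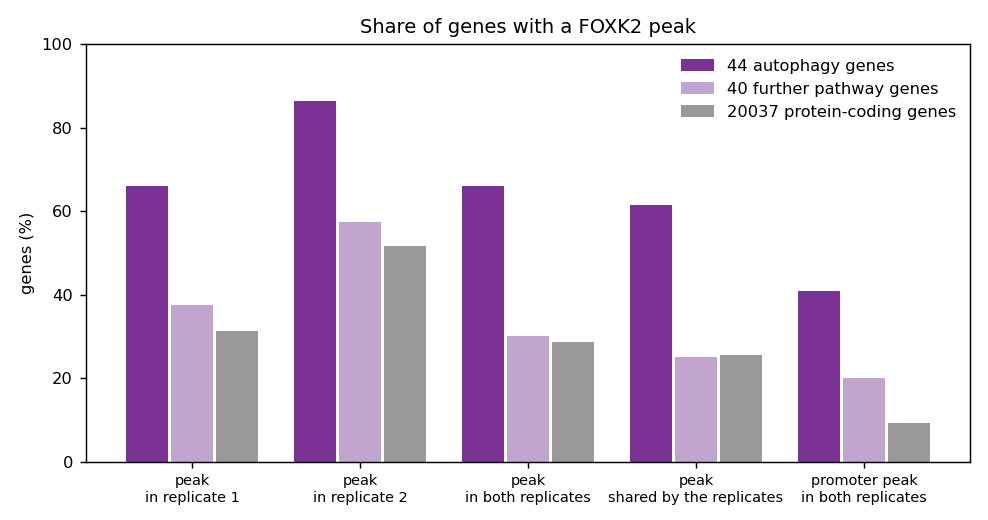
Bars give the percent of genes (y axis, 0 to 100%) with a FOXK2 peak in each replicate, in both, shared, or in the promoter in both, for the 44 autophagy genes, 40 further genes of the pathway and 20037 protein-coding genes. The autophagy genes reached 61.4% for shared peaks, beside 25% and 25.5%.

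Every peak carries a score, read here as sequencing tags scaled to library size. The lists do not state the scaling, which was inferred from the fixed steps of the scores and the HOMER default. The score ran from 3.02 to 188.3 in replicate 1 (median 5.85) and from 3.12 to 387.9 in replicate 2 (median 7.29). Since the scaling belongs to each library, a score was compared only with others of its own list. It was given as a rank from the top or as a percentile. The percentile is the rank from the bottom as a percent of the list, with tied scores given their average rank. The 38 shared pairs of peaks at autophagy genes had a median percentile of 84.0, averaged over both lists, beside 67.9 for all 9343 overlapping pairs. The percentile was higher in replicate 2 for 35 of the 38 pairs (92.1%), as it was for 89.4% of all pairs. The centres of a pair were separated by 24.5 bp at the median (range 1 to 147 bp), beside 29 bp over all pairs.

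**Figure D2:**
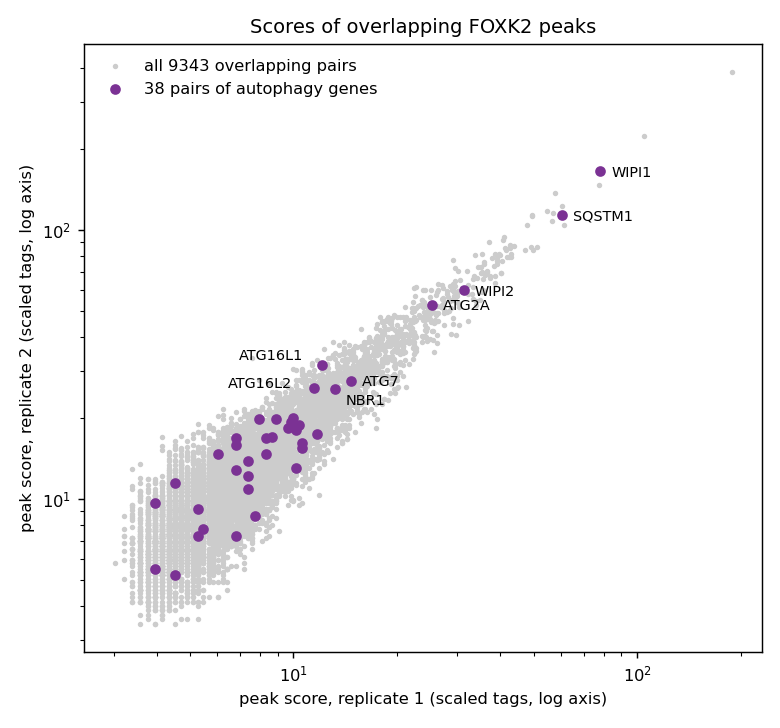
Peak score in replicate 1 (x) against replicate 2 (y), both in scaled tags on log axes, for all 9343 overlapping pairs (grey) and the 38 pairs of autophagy genes (purple), with 8 genes named. WIPI1 and SQSTM1 stand among the highest scores of both lists. The other pairs spread over lower scores, up to 31.3 in replicate 1 and 59.8 in replicate 2 (WIPI2).

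Of the 4 genes with the best shared peaks, 3 belonged to the step of phagophore growth. WIPI1, which binds PI3P on the forming membrane, had a promoter peak with a score of 78.1 in replicate 1 and 165.5 in replicate 2. It was at rank 3 in both lists, 317 and 316 bp upstream of the TSS, and its centre moved by 1 bp between replicates. When the 5111 protein-coding genes with a shared peak were ordered by percentile over both lists, WIPI1 was at position 3. WIPI2, the paralog that recruits ATG16L1 to the phagophore, had a promoter peak at chr7:5190121-5190329 with scores of 31.3 and 59.8, at ranks 76 and 88. ATG2A, a lipid transfer protein, was bound in intron 1, 836 and 814 bp past the TSS, with scores of 25.3 and 52.8 (ranks 146 and 125), in the interval printed above. A weaker ATG2A peak lay in the promoter, with scores of 7.36 and 13.8. By assigned name, the other genes of this step differed from these 3. ATG2B, the paralog of ATG2A, had a peak of its own only in replicate 2 (score 8.03, intron), and VMP1, a membrane scramblase, had a promoter peak only in replicate 2 (score 11.9, rank 5462). The scramblase genes ATG9A and ATG9B had no assigned peak. By position, VMP1 and ATG2B held intron peaks in both lists that were assigned to neighbours, at ATG2B with scores of 12.8 and 19.9. These, and a promoter peak at ATG9A assigned to a neighbour, are described further on.

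The initiation kinase complex had shared peaks at 3 of 5 genes. RB1CC1, the scaffold FIP200, had a promoter peak with scores of 11.7 and 17.4 (ranks 1205 and 2310) and an intron 1 peak with scores of 8.68 and 17, and the latter held the forkhead heptamer. ULK1, the kinase itself, was bound in intron 3, 1423 and 1420 bp past the TSS, with scores of 10.6 and 15.5 (ranks 1588 and 3052). A ULK1 promoter peak was called in replicate 2 alone, with a score of 7.44. ATG101, a stabilising subunit, had a promoter peak at chr12:52069722-52069932 with scores of 8.30 and 16.8. These 3 genes had peaks of middle to high rank in both lists. ATG13, the adaptor subunit, had a promoter peak at rank 2310 of replicate 2 (score 17.4, percentile 91.4), while the nearest replicate 1 peak was centred 23171 bp away and assigned to AMBRA1. It was the highest-scoring peak among the genes seen in a single replicate. ULK2, the paralog of ULK1, had 3 peaks in replicate 2 with scores of at most 6.1.

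Of the 6 genes of the class III PI3-kinase complex and its partners, 5 had peaks in both replicates and 4 had a shared one. AMBRA1, a regulator of BECN1, had 2 shared peaks. The promoter peak scored 10.6 and 16.2 (ranks 1588 and 2755), and the one in intron 1, 37011 and 36926 bp past the TSS, scored 10.4 and 18.9. BECN1, the core regulatory subunit, had a promoter peak at chr17:42824177-42824372 with scores of 7.36 and 12.2 (ranks 3872 and 5177). The shared peaks of the other members of the complex were weak in both lists. PIK3C3, the lipid kinase, had a shared intron peak with scores of 4.53 and 5.21, and a promoter peak (score 6.99) in replicate 2 alone. ATG14, which directs the complex to autophagy, had a promoter peak with scores of 3.96 and 5.50, whose centres lay 147 bp apart, the widest gap among the 38 pairs. UVRAG, an alternative subunit, had a promoter peak in replicate 1 (score 6.41) and an intron peak in replicate 2 (score 6.84) that did not overlap. PIK3R4, the scaffold subunit, had 2 peaks in replicate 2 only, with scores of 5.5 and 9.07.

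The ubiquitin-like conjugation enzymes and their partners had shared peaks at 6 of 10 genes. ATG7, the E1-like activating enzyme, had a peak 114 and 73 bp past the TSS with scores of 14.7 and 27.5 (ranks 625 and 681). ATG16L1, which places the conjugation complex on the membrane, had a promoter peak at chr2:233251424-233251622 with scores of 12.1 and 31.4 (ranks 1091 and 485). Its paralog ATG16L2 had a promoter peak with scores of 11.5 and 25.9 (ranks 1263 and 804). These 3 genes had percentiles of at least 89.7 in both lists. ATG5, joined to ATG12 in the conjugate, had a promoter peak with scores of 6.04 and 14.7 (percentiles 52.2 and 87.3). ATG12 had a shared peak 16265 and 16270 bp upstream of its TSS, inside AP3S1, with scores of 7.73 and 8.63. ATG10, the E2-like enzyme for ATG12, was bound 135390 and 135359 bp past its TSS, with scores of 3.96 and 9.67. This pair differed most in percentile of the 38, at 7.55 in replicate 1 and 68.9 in replicate 2. Over all overlapping pairs, the percentile was 12.7 higher in replicate 2 at the median. Of the ATG4 proteases, which process ATG8 proteins, ATG4B (score 5.06) and ATG4D (score 3.42) had a peak in replicate 2 only. ATG4C had none, and neither did ATG4A, which was counted with the further genes of the pathway. ATG3, the E2-like enzyme for ATG8 proteins, had none either.

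All 5 genes of the ATG8 family among the 44 had a shared peak, 4 of them in the promoter. Other ATG8 genes were counted with the further genes of the pathway. Of those, MAP1LC3C had no peak and MAP1LC3B2 had an intron peak in replicate 2 only (score 5.8). MAP1LC3B, the LC3 protein most used as an autophagosome marker, had a promoter peak with scores of 10.2 and 13.1 (ranks 1751 and 4466). GABARAPL1 had a promoter peak with scores of 7.92 and 19.9 (ranks 3303 and 1573). GABARAPL2 had one with scores of 6.79 and 16.8 (ranks 4624 and 2515). The order of these genes thus differed between the replicates, with MAP1LC3B highest in replicate 1 and GABARAPL1 in replicate 2. GABARAP had the weakest promoter peak of the family, with scores of 5.28 and 7.29. MAP1LC3A had no promoter peak, and its best shared peak (scores 6.79 and 15.9) lay 21793 and 21789 bp from its TSS, in an intron of PIGU.

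Of the 7 cargo receptors among the 44 genes, 6 had peaks in both replicates and 5 had a shared peak. A separate group of 13 selective receptors and regulators, counted further on, had a shared peak at 1 gene. SQSTM1, the ubiquitin-binding receptor p62, had the second best peak of the 44 genes, with scores of 60.4 and 113.3 at ranks 8 and 10. It lay 1645 and 1649 bp upstream of the TSS the list used, in an intron of a longer SQSTM1 transcript, and the nearest transcript start of GENCODE was 230 bp away. Among genes with a shared peak, SQSTM1 stood at position 9 of 5111. NBR1, a receptor built like SQSTM1, had a promoter peak with scores of 13.2 and 25.7 (ranks 879 and 812) and an intron 1 peak with scores of 10.2 and 18.0 that held the heptamer. CALCOCO2, the receptor NDP52, had a promoter peak with scores of 9.81 and 19.3 (ranks 1915 and 1704). TAX1BP1 had 3 shared peaks, 1 of them intergenic, 16125 and 16138 bp upstream, with scores of 10.0 and 20.1 and the heptamer. These 4 ubiquitin-binding receptors ranged from percentile 84.2 upward in both lists by their best peak. By assigned name, OPTN, another ubiquitin-binding receptor, had peaks only in replicate 2, the best with a score of 9.52. By position, overlapping peaks assigned to CCDC3 lay at a GENCODE start of OPTN, with scores of 4.9 in replicate 1 and 10.6 in replicate 2. The mitophagy receptor BNIP3 had a shared peak 33883 and 33835 bp from its TSS, inside PPP2R2D, with scores of 5.28 and 9.22. Its paralog BNIP3L had a promoter peak in replicate 1 (score 9.62, rank 2021) that a replicate 2 peak (score 22.6, rank 1133) overlapped, but the list of replicate 2 assigned that peak to the pseudogene SDAD1P1. By position, then, the BNIP3L promoter was bound in both replicates although the names did not show it. By name, BNIP3L counted in both replicates through an intergenic replicate 2 peak 61452 bp from its TSS (score 4.76, rank 22077).

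Of the 4 other adaptors, TP53INP1, which shuttles to autophagosomes under stress, had a promoter peak with scores of 9.62 and 18.3 (ranks 2021 and 2013). TECPR1, a tether for lysosomes, had peaks in replicate 2 only, with scores of 6.1 and 4.02. EPG5 and TP53INP2 had none. In all, 6 of the 44 genes had no peak in either list (13.6%), as did 45.6% of protein-coding genes, and 9 had peaks in replicate 2 only (20.5%, against 23.1%). A gene without a peak here is one to which the lists assigned none, either because no peak passed the authors' threshold or because a nearby peak was given to a neighbour, as described for ATG9A and VMP1 further on. The replicate 1 list was also the shorter one. ATG3 is a like case, with a replicate 1 peak in its intron 1 (score 4.34) that was assigned to SLC35A5.

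**Figure D3:**
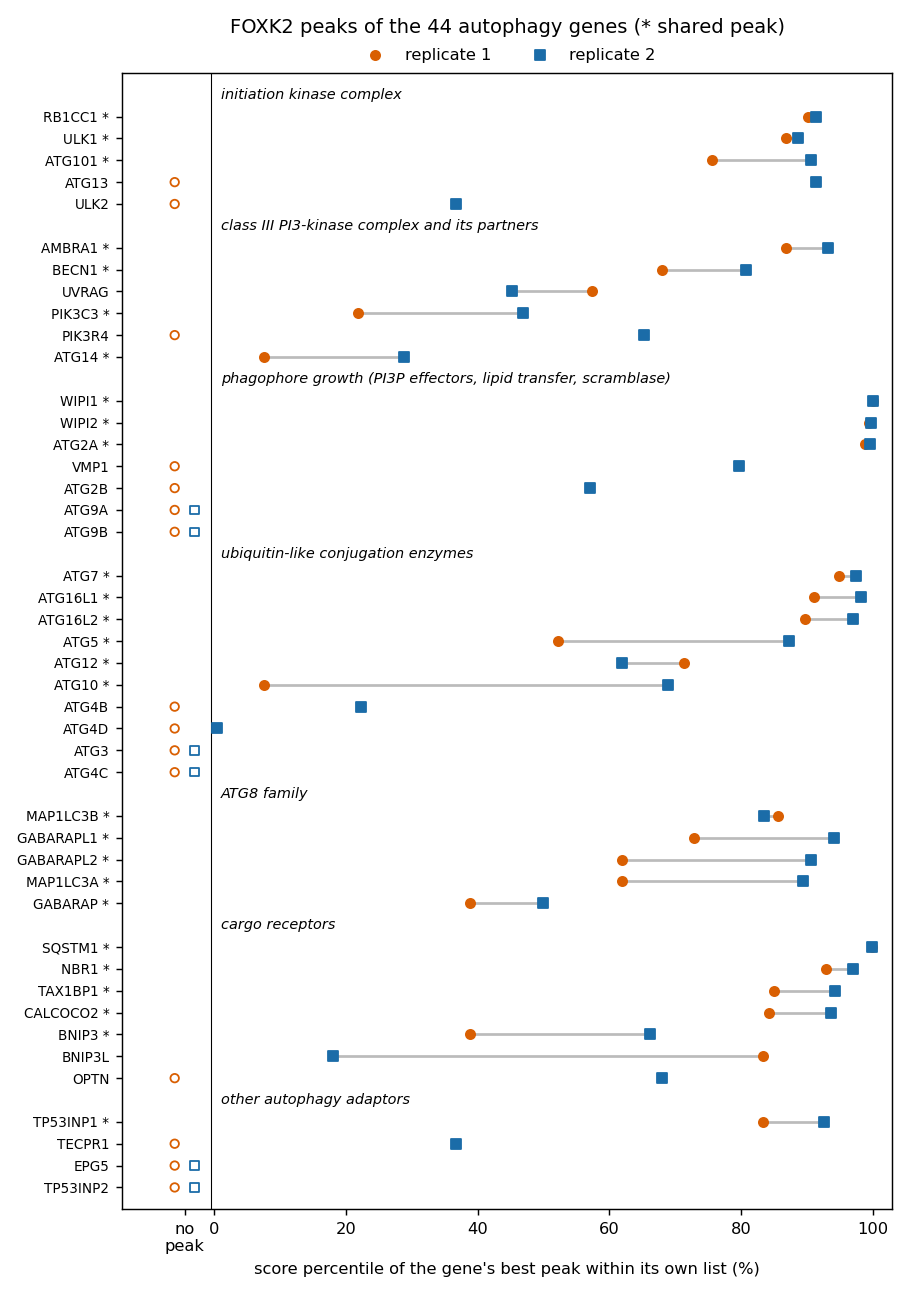
Score percentile of the best peak of each of the 44 genes within its own list (x axis, 0 to 100%) in replicate 1 (orange circles) and replicate 2 (blue squares), by role in autophagy, with open symbols where no peak was assigned. The best peaks of WIPI1, SQSTM1, WIPI2 and ATG2A lie at the right edge in both replicates, where squares cover circles, and 27 genes marked with a star have a shared peak.

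By their best shared peak, the 27 genes had a median percentile of 87.8 over both lists, beside 72.4 for the 5111 protein-coding genes with one. The median was 85.4 for the 10 further genes of the pathway, listed further on, that had a shared peak. Pairs above percentile 90 in both lists made up 8 of 38 (21.1%), beside 13.2% of all pairs, and belonged to WIPI1, SQSTM1, WIPI2, ATG2A, ATG7, NBR1, ATG16L1 and RB1CC1. The strength of the peaks was therefore uneven, with a few near the top of the lists and ATG14 and PIK3C3 near the bottom.

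The peaks of the autophagy genes lay close to transcript starts. Their median distance from the TSS was 530 bp in replicate 1 (40 peaks) and 3152.5 bp in replicate 2 (76 peaks), beside 16139.5 and 20161 bp over all peaks. Promoter peaks were 20 of 40 in replicate 1 (50%, Wilson 95% interval 35.2% to 64.8%), beside 21.7% of the list, and 26 of 76 in replicate 2 (34.2%, 24.5% to 45.4%), beside 18.0%. These intervals cover counting error only, and peaks of 1 gene are not independent of each other. Of the replicate 1 peaks, 39 of 40 were overlapped by a replicate 2 peak (97.5%, beside 74.9% of the list). Of the replicate 2 peaks, 38 of 76 were overlapped by a replicate 1 peak (50%, beside 34.2%). The overlapped peaks of replicate 2 had a median percentile of 90.2 and the others 36.7, beside 77.9 and 34.8 over the whole list, so peaks without a partner were weaker in general. Of these 38 peaks without a partner, 22 lay over 10000 bp from the TSS and 10 within 1000 bp of it, as the plot of score against distance shows.

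**Figure D4:**
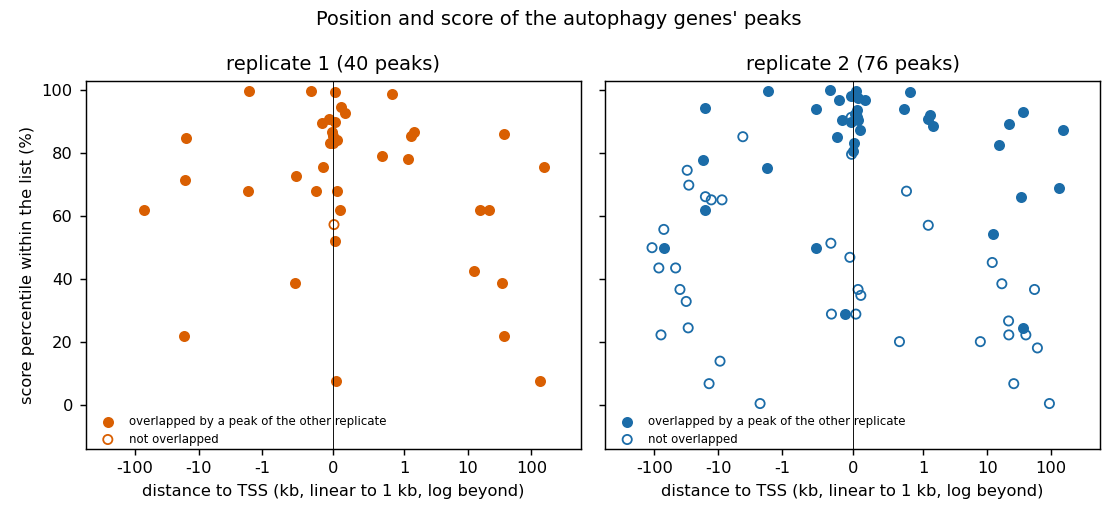
Distance of each peak from the TSS (x axis in kb, linear to 1 kb and logarithmic beyond) against its score percentile (y axis) for the 40 peaks of replicate 1 and the 76 of replicate 2, filled where a peak of the other replicate overlapped. The strongest peaks cluster at the TSS in both panels, and 38 open symbols in replicate 2 spread to low percentiles.

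Few promoter peaks of the autophagy genes held the forkhead heptamer. Within 100 bp of the peak centre, TGTTTAC was in 7 of 40 peaks of replicate 1 (17.5%, Wilson 95% interval 8.75% to 31.9%), beside 30.5% of all peaks, and in 19 of 76 of replicate 2 (25%, 16.6% to 35.8%), beside 28.2%. Split by place, none of the 20 promoter peaks of replicate 1 held it, which allows a share of up to 15% when 3 counts are taken as the limit of a count of 0 (16.1% by the Wilson interval), so a difference from the 14.4% of all promoter peaks was not detectable at this number of peaks. In replicate 2, 1 of 26 promoter peaks held it, that of ATG10 with a score of 5.5 (3.85%, 0.682% to 18.9%), beside 10.9% of all. Outside promoters it was in 7 of 20 (35%) and 18 of 50 (36%) peaks, beside 35.0% and 32.0% of all such peaks. The list values lay inside the Wilson intervals of the autophagy genes in both replicates, for all peaks, for promoter peaks and for peaks elsewhere.

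**Figure D5:**
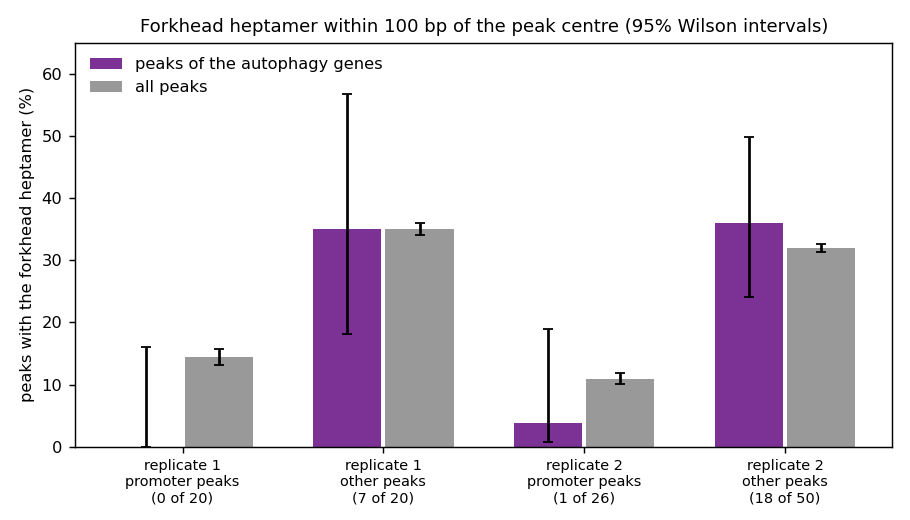
Bars give the percent of peaks with the forkhead heptamer on either strand within 100 bp of the centre, for promoter and other peaks of each replicate, in the autophagy genes (purple) and all peaks (grey), with Wilson 95% intervals. The intervals of the autophagy genes are wide and reach the grey bars in all 4 groups.

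In 7 of the 38 shared pairs (18.4%, beside 33.4% of all pairs) the heptamer was within 100 bp of the centre of both peaks. They belonged to SQSTM1, TAX1BP1, NBR1, RB1CC1, MAP1LC3A, ATG12 and ATG10, and none of these 7 peaks was of the promoter class. The common intervals held 8 heptamers, 6 of them within 50 bp of the replicate 1 centre. The variant TGTTGAC, looked up after the ATG2A sequence was seen, was within that window in both peaks of 3 pairs (7.89%, beside 8.08% of all pairs), those of ATG2A, ULK1 and MAP1LC3A. CACGTG was within 100 bp of both centres in 1 pair, that of WIPI1 (2.63%, beside 5.53%). By the same window it was in 6 of 20 promoter peaks of replicate 1 (30%, beside 10.7% of all) and in 1 of 26 of replicate 2 (3.85%, beside 10.1%). These counts turn on the window, since the intervals common to both peaks held a CACGTG at 4 genes, WIPI1, ATG5, GABARAP and ATG14, and in the last 3 it lay over 100 bp from the replicate 2 centre. TGANTCA was within the window of both peaks in 4 pairs (10.5%, beside 19.1%), those of SQSTM1, AMBRA1, GABARAPL1 and BNIP3. These matches are descriptions of the letters and not of which factor was bound.

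In the RefSeq promoter windows of GRCh38.p14, from 250 bases before to 50 after the gene start, 37 of the 44 genes could be matched. TGTTTAC was in 1 of them, CALCOCO2 (2.70%), beside 3.75% of 15843 protein-coding genes. Where both replicates had a promoter peak it was in 1 of 16 autophagy genes (6.25%), beside 10.8% of 1589 genes.

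The nearest TSS and the gene body did not always name the same gene. Of the 38 shared pairs, 17 had their centre outside the GENCODE body of the named gene. Some of these were promoter peaks just upstream of its start, as at ATG5 (1 bp) and GABARAPL1 (89 bp). Of all assigned peaks, 9 of 40 in replicate 1 and 13 of 76 in replicate 2 were centred in another coding gene's body and not the named gene's. Counting peaks by GENCODE gene body with 1000 bp upstream gave 31 of the 44 genes in both replicates (70.5%), against 28.6% of 20007 GENCODE protein-coding genes. This added ATG2B, ATG9A, OPTN and VMP1 and left out BNIP3 and MAP1LC3A. VMP1, for example, held 3 replicate 1 peaks in its introns (ranks 813, 1014 and 1091), each overlapped in replicate 2, that the lists assigned to PTRH2 and to MIR21, the microRNA gene at the end of VMP1. ATG2B held a peak in intron 34 (scores 12.8 and 19.9) that was assigned to BDKRB1. With promoters drawn around every GENCODE transcript start, 24 genes had a promoter peak in both replicates (54.5%), against 14.8% of GENCODE protein-coding genes. At ATG9A this was a peak with scores of 7.36 and 12.6, assigned to the neighbour ANKZF1, whose start is close by. At ATG12 it was a peak with scores of 6.79 and 12.2, assigned to AP3S1.

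A further 40 genes of the pathway, covering autophagosome fusion with the lysosome, selective receptors and other machinery, were counted in the same way. Of these, 12 had a peak in both replicates (30%, background 28.6%) and 10 had a shared peak (25%, background 25.5%), shares near those of all protein-coding genes. By group, a shared peak was found at 5 of 16 fusion genes, 1 of 13 selective receptors and regulators, and 4 of 11 genes of other machinery. A promoter peak in both was found at 8 of the 40 genes (20%, background 9.31%), while 14 had no peak (35%, beside 45.6%). The fusion SNARE gene SNAP29 had the best one, in the promoter, with scores of 22.4 and 37 (ranks 200 and 323). WDR45, which encodes another WIPI family protein, had a promoter peak with scores of 16.4 and 29.4 (ranks 465 and 561) that held the heptamer. ZFYVE1, the PI3P-binding protein DFCP1, had a peak near its TSS with scores of 10.4 and 22. The ER-phagy receptor gene CCPG1 had a promoter peak with scores of 10.6 and 16.4. SH3GLB1, a BECN1 partner that bends membranes, had its best peak by mean percentile 88641 bp from the TSS, with scores of 9.43 and 15.6. In replicate 2 alone, its shared peaks at 49396 and 69977 bp scored higher, at 18.9 and 16.5.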

How the data were processed

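FOXK2 ChIP-seq of 2 biological replicates was analysed from the peak lists that the authors deposited. According to the paper, the authors mapped reads to hg38 with Bowtie2 2.2.6 and called peaks with HOMER 4.10. Each deposited list gives a peak score, a focus ratio, which is a fraction of tags per peak, and the distance to the nearest TSS. The deposited scores rose in steps of fixed size, so that under default HOMER scaling to 10000000 tags the weakest peaks held 16 and 21 tags and the median peaks 31 and 49. Neither read totals nor the scaling are stated in the lists.

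The 44 genes, the 40 further genes and the comparisons were chosen with earlier results of these data known. All 44 genes were accounted for. Values in both replicates were printed for every gene with a shared peak, grouped by role. Other genes were named by group with the scores of their assigned peaks, or at least the highest where there were several. The 5 best further genes by mean percentile were named. Backgrounds were RefSeq protein-coding genes on named chromosomes, or all peaks. Gene bodies and starts came from GENCODE release 44, with promoters from 1000 bp upstream to 100 bp downstream. Motifs were searched in hg38 within 100 bp of peak centres. No test was run on the peak lists, and a comparison of ChIP with input was not made, since the input libraries were not analysed here. Peak overlaps and motif searches were first tested on simulated data. The software was Python 3.11.15 with pandas 2.3.3, matplotlib 3.10.9, scipy 1.17.1 and numpy 2.4.6.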

Additional observations from a re-analysis of the deposited data

How the results depend on the processing

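Of 59 values under alternative settings, 47 stayed within 1.5 times the reported count, within the Wilson interval of the reported share, or within 1 SD between replicates of the reported median. The gene counts did so throughout, with 22 to 31 genes for peaks in both replicates, 22 to 27 for shared peaks and 16 to 24 for promoter peaks in both, apart from the settings that used a single replicate (29 and 38 genes with a peak, 20 and 26 with a promoter peak). In the higher-scoring part of each list, 50% of the genes had a shared peak and 36.4% a promoter peak in both, beside 16.6% and 6.23% of protein-coding genes. The 12 values that moved were all shares or medians over peaks. The overlapped share of replicate 2 peaks (50%) was 63.8% in the higher-scoring part of each list, 75.6% with lists of equal length and 61.9% within 10000 bp of the TSS, beside 40.4%, 59.98% and 39.99% of all peaks. The median percentile in replicate 2 (66.2) was 87.3, 88.7 and 86.3 under the same settings, beside 75.3, 77.2 and 58.3 for all peaks. Within 10000 bp the promoter share was 71.4% in replicate 1 and 61.9% in replicate 2 (50.7% and 47.5% of all peaks), which follows from leaving out distant peaks. With the looser motif TGTTTNC the heptamer share was 37.5% and 38.2% (45.9% and 43.8% of all peaks), and with promoter peaks only it was 0% and 3.85%. Windows of 500 bp to each side gave 30% and 34.2% (38.4% and 35.7% of all peaks), and windows of 50 bp gave 12.5% and 21.1% (24.97% and 23.4% of all peaks). Counting TGTTTAC or TGTTGAC, an alternative chosen after seeing the data, gave 25% and 31.6% (37.6% and 34.8% of all peaks). Replicate 1 held fewer peaks, so a gene seen only in replicate 2 is not shown to be unbound in replicate 1. The small number of peaks, 40 and 76, limited the precision of every share.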

Other observations

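Some peaks in the annotated bodies of autophagy genes belonged by name to neighbours. The GENCODE body of ATG5 held 3 peaks in replicate 1 and 9 in replicate 2 that were assigned to PRDM1, a transcription factor gene. All but 2 of the replicate 2 peaks lay outside the canonical ATG5 transcript, in a stretch where the body rests on longer transcripts and PRDM1 itself begins. The best of these scored 13.8 and 20.7, above the promoter peak of ATG5 itself in both lists. The body of MAP1LC3B, in a stretch before its canonical transcript, held a peak assigned to FBXO31, an F-box gene. It scored 15.5 and 24.5 (ranks 541 and 908), above the MAP1LC3B promoter peak in both lists. In total, 12 such peaks in 8 genes were counted in replicate 1 and 28 peaks in 12 genes in replicate 2, beside the 40 and 76 peaks assigned to the 44 genes.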
